A study of Mus musculus with 10 samples.

Results

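The genes described here are 50 members of the mouse WNT pathway, the signalling route on which the GSK3 inhibitor CHIR99021 acts. Each member was taken as its RefSeq span on the mm10 assembly, and all sites of 5-carboxylcytosine (5caC) listed inside that span were counted. The 50 spans are 50 of 49554 annotated genes, and they held 3039 of 922427 listed positions. By role they were 19 WNT ligands, 15 receptors and receptor regulators, 13 intracellular members and 3 secreted inhibitors.

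The study mapped 5caC at single CG positions in DNA from mouse embryonic stem cells. The groups were Tdg cells in serum-2i, Tdg cells in serum, wild-type (wt) cells in serum-2i and wt cells in serum, with 2 technical replicates each. All cells were grown without feeders in serum and LIF, and serum-2i added 3 µM CHIR99021 and 1 µM PD0325901, which blocks the kinase MEK. Thymine DNA glycosylase, the product of Tdg, excises 5caC, and the labels name the gene but state neither how it was altered nor the clone. DNA of serum-grown cells lacking the Tet enzymes, which make 5caC, served as a negative control that, per the labels, entered the making of the table; it is not analysed here, so no background level can be set beside the values. The table is of DNA and holds no expression, so the cell type could not be checked against marker genes.

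WNT ligands are lipid-modified secreted proteins that bind Frizzled receptors together with the co-receptor LRP5 or LRP6. Without a ligand, a complex of AXIN, APC, GSK3 and a casein kinase phosphorylates β-catenin, the product of Ctnnb1, which is then degraded. With a ligand, Dishevelled proteins are engaged, the complex is held back, and β-catenin enters the nucleus and joins TCF and LEF factors on target genes. CHIR99021 blocks GSK3 directly and so acts below the receptors. In mouse embryonic stem cells this block supports self-renewal, in large part by relieving repression by Tcf7l1.

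A listed site is a CG position to which the authors' table gives a coverage value for a group. Coverage is a read signal, read here as the mean of the 2 technical replicates, and it was listed only from 6 upward in either Tdg group, from 4 in serum-2i wt and from 3 in serum wt. A position absent from a group therefore has an unknown value and not a value of 0. The whole table had 689303 listed sites in serum-2i Tdg cells, 374488 in serum Tdg cells, 110753 in serum-2i wt cells and 8685 in serum wt cells. Summed coverage was 12348368, 7486660, 890158.5 and 43172 in the same order, and it stands in for depth, since read numbers were not used here. The table gives no value per replicate, so no spread between replicates can be given and no p-value was computed.

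Start windows show which CGs carried the signal nearest to the genes' starts. RefSeq windows from 250 bases before to 50 bases after an annotated start were at hand for 35 of the 50 members, in 45 windows. The sequences below are from RefSeq on GRCm38.p6, 5′ to 3′ on the strand of the gene, and capitals mark each CG listed in either Tdg group. The first 4 are shown because they carry listed CGs near the starts of 3 ligands and 1 inhibitor, and the last because it carries none. Left out are windows listed in serum-2i Tdg cells but not in serum Tdg cells, at Wnt5b (2 CGs), Wnt8b (1) and Lef1 (1). Further windows listed in serum Tdg cells alone, such as those of Fzd1 and Wnt16 (2 CGs each), are left out too.
Wnt11: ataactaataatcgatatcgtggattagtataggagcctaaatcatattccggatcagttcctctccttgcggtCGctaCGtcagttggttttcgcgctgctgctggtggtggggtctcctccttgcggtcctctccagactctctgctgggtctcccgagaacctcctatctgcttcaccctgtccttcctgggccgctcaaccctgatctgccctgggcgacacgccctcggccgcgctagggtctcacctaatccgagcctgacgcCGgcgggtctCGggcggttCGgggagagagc
Wnt3: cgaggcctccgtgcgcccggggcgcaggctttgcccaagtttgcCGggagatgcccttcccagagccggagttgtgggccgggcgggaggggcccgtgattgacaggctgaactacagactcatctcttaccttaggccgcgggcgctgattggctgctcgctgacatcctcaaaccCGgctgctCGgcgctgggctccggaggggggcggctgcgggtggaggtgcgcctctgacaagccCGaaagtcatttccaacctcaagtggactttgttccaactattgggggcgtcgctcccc
Wnt1: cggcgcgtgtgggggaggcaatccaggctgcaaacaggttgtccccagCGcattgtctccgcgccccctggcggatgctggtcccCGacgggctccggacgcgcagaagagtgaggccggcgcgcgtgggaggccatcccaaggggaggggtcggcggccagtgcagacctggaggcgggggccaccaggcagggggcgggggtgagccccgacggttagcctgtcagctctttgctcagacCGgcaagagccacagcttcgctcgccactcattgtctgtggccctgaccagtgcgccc
Dkk1: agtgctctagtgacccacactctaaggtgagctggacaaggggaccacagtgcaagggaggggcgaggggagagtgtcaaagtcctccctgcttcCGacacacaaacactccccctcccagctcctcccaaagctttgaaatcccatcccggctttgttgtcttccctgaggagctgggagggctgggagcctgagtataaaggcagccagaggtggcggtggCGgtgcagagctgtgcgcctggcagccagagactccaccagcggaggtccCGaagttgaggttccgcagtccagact
Ctnnb1: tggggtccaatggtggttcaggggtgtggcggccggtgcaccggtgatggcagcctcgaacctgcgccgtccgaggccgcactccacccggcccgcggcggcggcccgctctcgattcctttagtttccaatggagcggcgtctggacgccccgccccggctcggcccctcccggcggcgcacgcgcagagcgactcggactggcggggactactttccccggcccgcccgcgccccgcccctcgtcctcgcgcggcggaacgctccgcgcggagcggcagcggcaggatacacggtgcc

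The Wnt11 window (chr7:98838595-98838894, plus strand, at one of the gene's annotated starts) holds 23 CGs. Serum-2i Tdg cells listed none of them and serum Tdg cells listed 5, with coverages of 7, 15, 10.5, 15 and 20 from the upstream end. Both clusters of capitals in that sequence, upstream of the start and just after it, were thus listed in serum alone. In the Wnt3 window (chr11:103773925-103774224, plus strand) 1 of 24 CGs was listed in serum-2i Tdg cells, with a coverage of 8.5, against 4 in serum Tdg cells. That shared CG, 65 bases before the start, had a coverage of 23 in serum Tdg cells, and the other CGs listed there had 13.5, 9.5 and 7. For Wnt1 (chr15:98789607-98789906, plus strand) no CG of 26 was listed in serum-2i Tdg cells and 3 were in serum Tdg cells, at coverages of 11, 17.5 and 17.5.

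Dkk1 encodes a secreted antagonist that binds LRP5 and LRP6, and its window (chr19:30549447-30549746, minus strand) holds only 9 CGs. Serum-2i Tdg cells listed 1 of them, 154 bases before the start, with a coverage of 6, which is the listing minimum. Serum Tdg cells listed 2 different ones, 26 bases before and 24 bases after the start, with 8.5 and 13.5. The Ctnnb1 window (chr9:120933150-120933449, plus strand) holds 46 CGs and none was listed in any of the 4 groups.

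Over the 1185 distinct CGs in the members' windows, 6 (0.506%) had a coverage value in serum-2i Tdg cells and 27 (2.28%) in serum Tdg cells. All RefSeq windows together had 1.87% and 2.89% of 361339 CGs listed in the same order. Among the roles, ligands had 4 against 19 of 536 CGs, receptors 0 against 4 of 221, intracellular members 1 against 2 of 397 and inhibitors 1 against 2 of 31. In Tdg cells 15 of the 45 member windows had a listed CG, beside 7111 of all 32851 windows. In wt cells no CG of these windows was listed in serum-2i and 1, at Axin2, in serum. The core letters bound by TCF and LEF factors, CTTTGAT or ATCAAAG on the other strand, occurred in 2 of the 45 member windows, at Wnt5b and Wnt11 (4.44%), and in 3.73% of all windows. This is a match of letters and not a mapped site.

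Across whole spans, the members held 1926 listed sites in serum-2i Tdg cells, 1693 in serum Tdg cells, 341 in serum-2i wt cells and 34 in serum wt cells. At least 1 site was listed in 48, 50, 38 and 16 of the 50 genes in that order (96%, 100%, 76% and 32%). Among all 21631 protein-coding genes the shares were 75.4%, 66.5%, 56.1% and 15.5%. The median span was 26.9 kb for the members and 17.3 kb for all protein-coding genes. Site numbers by medium differed between the roles. Ligands had 529 sites in serum-2i Tdg cells, against 950 in serum Tdg cells, although the whole table held more sites in serum-2i. Intracellular members had 938 against 483, receptors 394 against 228 and secreted inhibitors 65 against 32. As shares of all listed sites of the group, ligands had 0.0767% in serum-2i Tdg cells and 0.254% in serum Tdg cells. Intracellular members had 0.136% and 0.129%, receptors 0.0572% and 0.0609% and inhibitors 0.0094% and 0.0085%. By share, ligands thus differed most between media, and the other roles differed little.

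Per length, ligand spans held 0.901 sites per kb in serum-2i Tdg cells and 1.62 in serum Tdg cells. Intracellular members stood at 1.00 and 0.515 sites per kb and receptors at 0.535 and 0.309, while all 21631 protein-coding spans together had 0.378 and 0.217. Ligands were thus denser in serum, and the other roles were denser in serum-2i, as was the sum of all protein-coding genes. Within the receptors, the 10 Frizzleds had 0.264 sites per kb in serum-2i Tdg cells and 0.418 in serum Tdg cells, and the other 5 had 0.596 and 0.285. Mean coverage per listed ligand site was 18.1 in serum-2i Tdg cells and 24.3 in serum Tdg cells, against 18.3 and 21.0 for intracellular members.

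**Figure D1:**
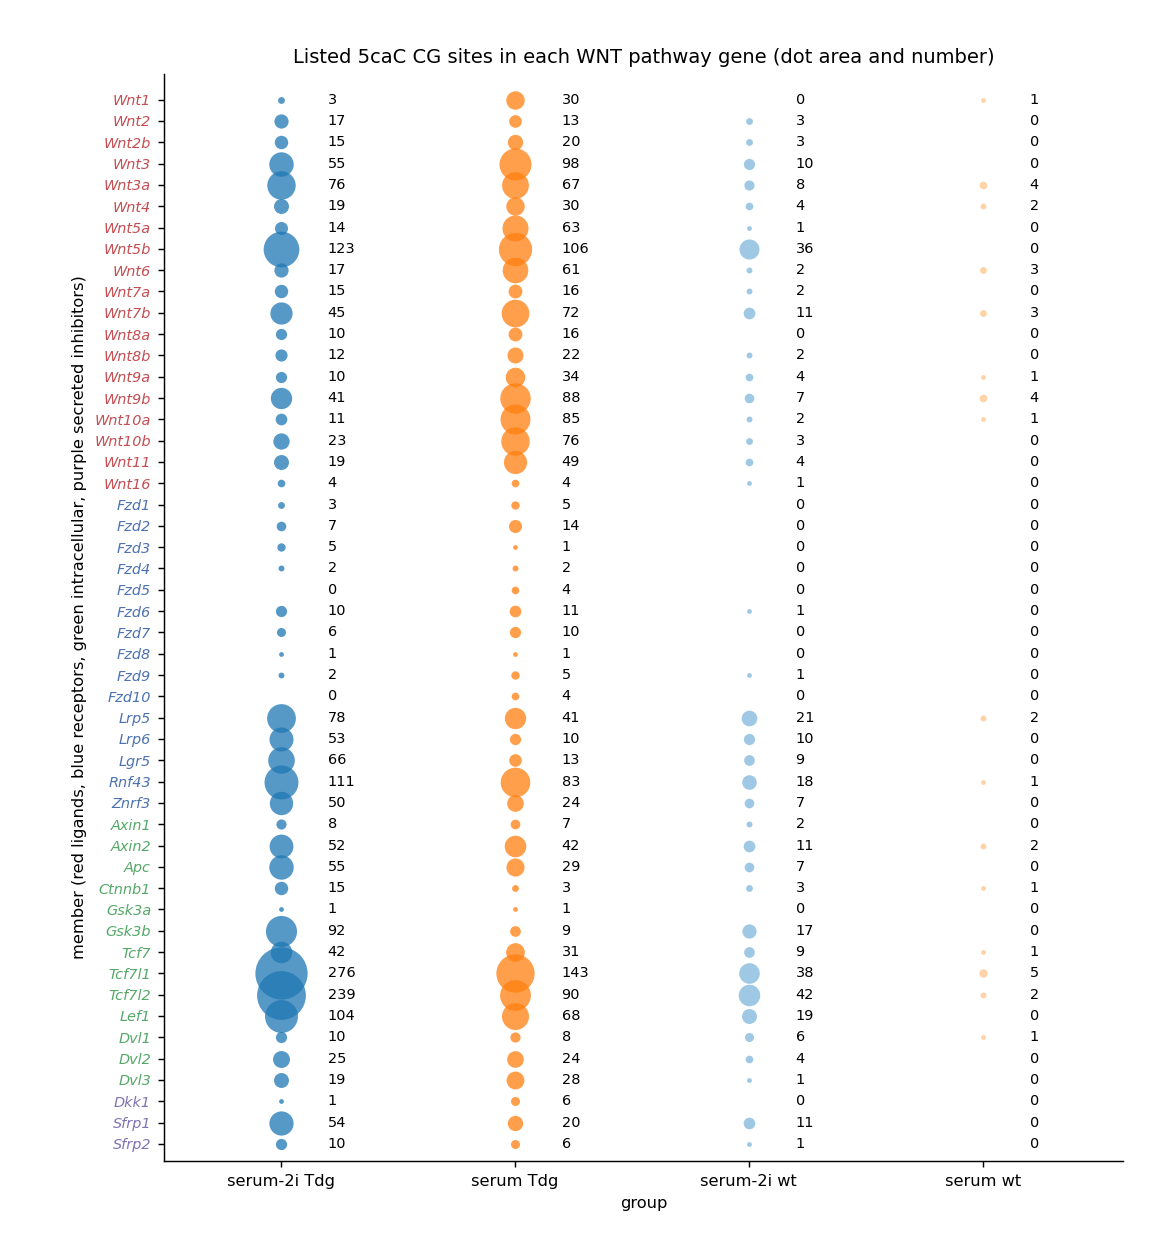
Listed 5caC CG sites in each of the 50 members (rows) in the 4 groups (columns), with dot area and the printed number both giving the count of sites. Tcf7l1 and Tcf7l2 hold the most sites in serum-2i Tdg cells, 276 and 239, while Wnt10a has 11 there against 85 in serum Tdg cells.

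To compare media, each gene's share of its group's summed coverage was taken, and the log2 ratio of shares was computed as serum-2i over serum. A gene was called higher or lower where the shares differed at least 2-fold and the 95% interval excluded no difference, and it was otherwise called between. The sums run over the sites listed in each group separately, so an unlisted position adds nothing to them, and a ratio compares listed coverage and not the amount of 5caC. The interval is exact for independent read counts and covers counting error only. Reads that carry no molecular identifiers cannot be taken as separate molecules, so the interval may be too narrow even for that. Neither unlisted sites nor the spread between cultures enter it. Genes needed a mean summed coverage of at least 20 over the 4 groups, which 43 members passed; Fzd3, Fzd4, Fzd5, Fzd8, Fzd9, Fzd10 and Gsk3a did not. A further 7 members passed only with their highest group, since the other 3 groups summed to under 80, so their calls are not independent of the filter: Ctnnb1 and Wnt16 through serum-2i Tdg cells, and Wnt1, Fzd1, Fzd2, Fzd7 and Dkk1 through serum Tdg cells.

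In Tdg cells, 4 of the 43 members were higher in serum-2i, 20 were lower and 19 were between. Over all 18050 genes with a ratio, 29.6% were higher and 25.7% lower. The median log2 ratio of the members was -0.88, against 0.10 over all genes. By role, ligands had 0 higher, 14 lower and 5 between (median -2.05), receptors 2, 3 and 4 (median -0.54) and intracellular members 2, 2 and 8 (median -0.41). Secreted inhibitors had 0 higher, 1 lower and 2 between. Ratios of the roles' summed coverage gave -1.99 for ligands, 0.12 for receptors and 0.03 for intracellular members.

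**Figure D2:**
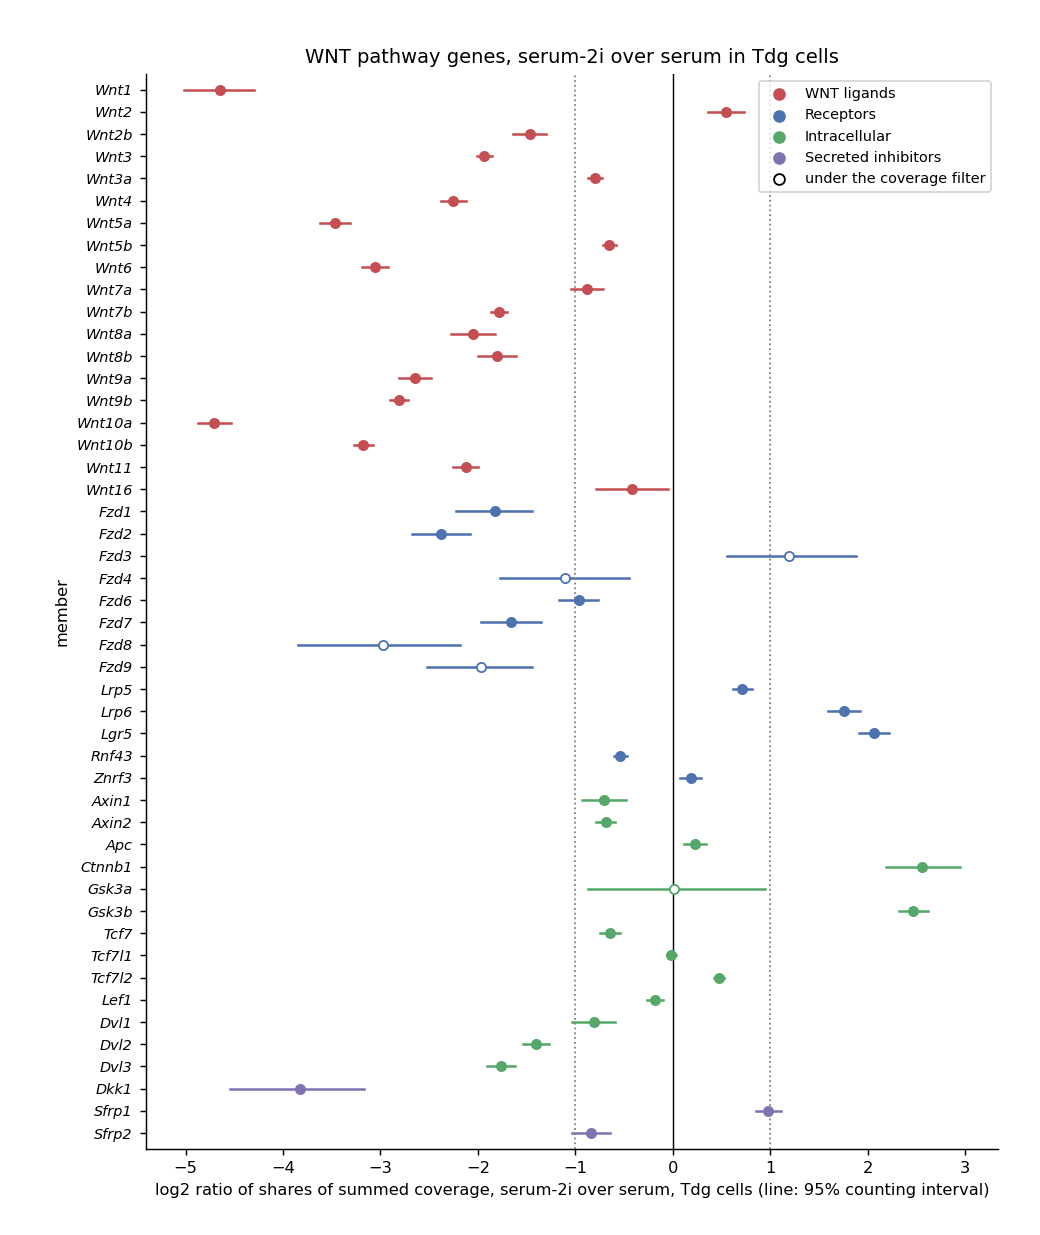
Log2 ratio of each member's share of summed coverage, serum-2i over serum in Tdg cells (horizontal axis), with its 95% counting interval as a line; dotted lines mark 2-fold, open points lie under the coverage filter, and Fzd5 and Fzd10, unlisted in serum-2i, are absent. Points of the ligands run from -4.70 (Wnt10a) to 0.55 (Wnt2), and the 4 members called higher are Lrp6, Lgr5, Ctnnb1 and Gsk3b.

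Wnt10a and Wnt1 had the lowest ratios among the ligands. Wnt10a (chr1:74792019-74804176) had 11 listed sites with a summed coverage of 151 in serum-2i Tdg cells, against 85 sites and 2385.5 in serum Tdg cells, and 2 sites (21) in serum-2i wt cells against 1 (9) in serum wt cells. Mean coverage per listed site was 13.7 in serum-2i Tdg cells and 28.1 in serum Tdg cells, and the log2 ratio of shares was -4.70 (interval -4.88 to -4.54). Of these sites, 63.6% in serum-2i and 49.4% in serum also lay inside another annotated span, and without them the log2 ratio was -4.65.

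Wnt1 (chr15:98789857-98793830) had 3 sites (summed coverage 35.5) in serum-2i Tdg cells, against 30 (538.5) in serum Tdg cells, no site in serum-2i wt cells and 1 (4) in serum wt cells. Its log2 ratio in Tdg cells was -4.64 (-5.01 to -4.30). The 3 sites of serum-2i lay 3603 to 3815 bases from the start, at the far end of the gene, whereas the sites of serum lay along its whole length. Neighbouring Wnt10b (chr15:98770712-98778206) had 23 sites (495.5) in serum-2i Tdg cells and 76 (2718) in serum Tdg cells, then 3 (24.5) in serum-2i wt cells and none in serum wt cells. The highest coverage in Wnt10b was 68 in serum-2i and 210 in serum, 2418 and 3821 bases from the start, and the log2 ratio was -3.18 (-3.28 to -3.08).

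**Figure D3:**
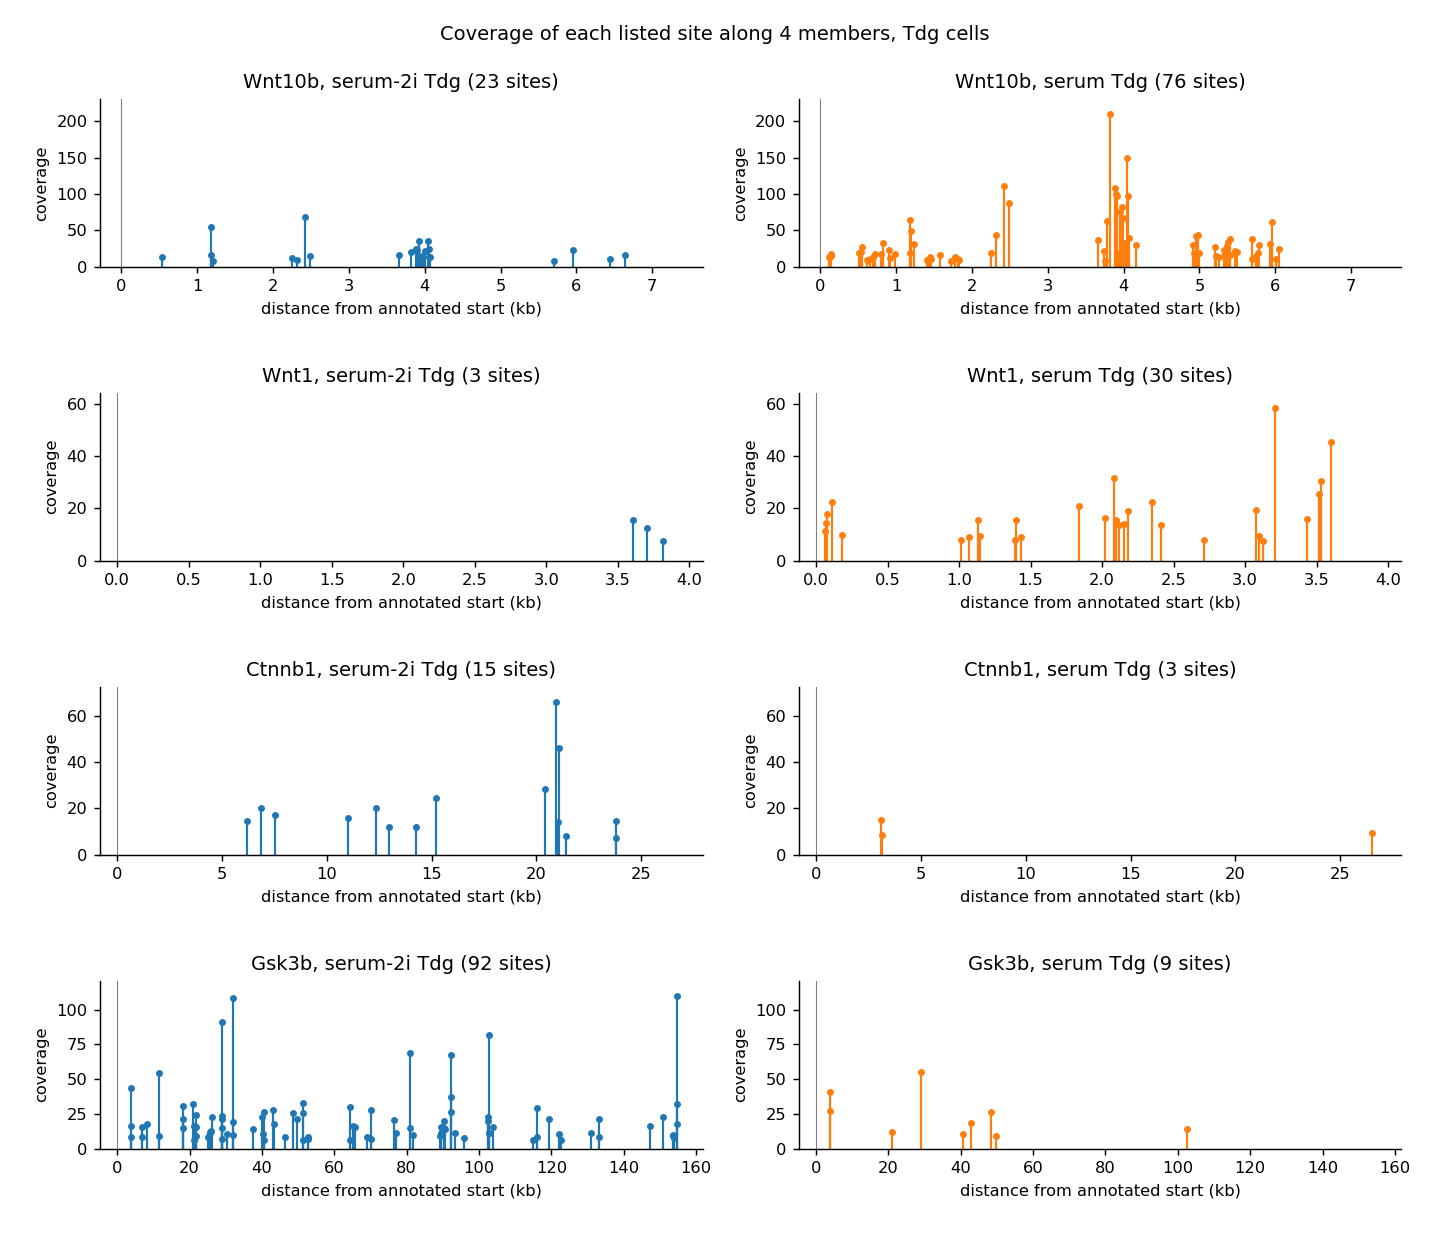
Coverage of each listed site (vertical lines) against the distance from the annotated start in kb for Wnt10b, Wnt1, Ctnnb1 and Gsk3b, with serum-2i Tdg cells on the left and serum Tdg cells on the right, on the same axes for both media. Wnt1 has 3 sites in serum-2i and 30 in serum, and Gsk3b 92 in serum-2i and 9 in serum.

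Wnt5a and Wnt6 also had ratios below -3. Wnt5a, a ligand best known for signalling without β-catenin, had 14 sites (205.5) in serum-2i Tdg cells and 63 (1374.5) in serum Tdg cells, with 1 site (6) in serum-2i wt cells and none in serum wt cells. The log2 ratio was -3.46 (-3.62 to -3.31). In both media the densest kilobase lay in the same stretch of chromosome 14 (chr14:28517723-28518573 in serum-2i, chr14:28517795-28518700 in serum), with 6 sites in serum-2i and 21 in serum. Wnt6 had 17 sites (269.5) in serum-2i Tdg cells, 61 (1357) in serum Tdg cells, 2 (15) in serum-2i wt cells and 3 (10.5) in serum wt cells, and a log2 ratio of -3.05 (-3.19 to -2.92).

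On chromosome 11, Wnt9b and Wnt3 overlap, and 8 listed positions lay in both spans. Wnt9b had 41 sites (628.5) in serum-2i Tdg cells, 88 (2668.5) in serum Tdg cells, 7 (59.5) in serum-2i wt cells and 4 (21.5) in serum wt cells, with a log2 ratio of -2.81. For Wnt3, required in the mouse embryo for primitive streak formation, the counts were 55 (986.5) in serum-2i Tdg cells, 98 (2288) in serum Tdg cells, 10 (75) in serum-2i wt cells and none in serum wt cells, with a log2 ratio of -1.94. Another pair of neighbours, Wnt9a and Wnt3a, differed in size. Wnt9a had 10 sites (193) in serum-2i Tdg cells, 34 (730.5) in serum Tdg cells, 4 (33) in serum-2i wt cells and 1 (3.5) in serum wt cells, and a log2 ratio of -2.64.

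The remaining ligands called lower had log2 ratios from -2.25 to -1.47. Wnt4 had 19 sites (323.5) in serum-2i Tdg cells, 30 (933.5) in serum Tdg cells, 4 (28.5) in serum-2i wt cells and 2 (10) in serum wt cells. Wnt11 counts were 19 (326), 49 (862), 4 (32.5) and none in the same order of groups. Wnt8a had 10 (118), 16 (296), none and none, and Wnt8b 12 (163), 22 (345), 2 (23) and none. For Wnt7b the values were 45 (878), 72 (1832.5), 11 (83) and 3 (13), and for Wnt2b 15 (236), 20 (396.5), 3 (21) and none. In each of these 6 genes the serum Tdg value was the highest of the 4 groups.

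The 5 ligands between the limits were Wnt2 (log2 0.55, 17 sites in serum-2i Tdg cells against 13 in serum Tdg cells), Wnt16 (-0.42, 4 against 4), Wnt5b (-0.65), Wnt3a (-0.80, 76 against 67) and Wnt7a (-0.88, 15 against 16). Wnt2 was the only ligand whose ratio was above 0. Wnt5b, the ligand with the most listed sites, had 123 (2050.5) in serum-2i Tdg cells, 106 (1952.5) in serum Tdg cells, 36 (264) in serum-2i wt cells and none in serum wt cells. Of its Tdg sites, 31.7% in serum-2i and 37.7% in serum lay in another span as well. In Wnt3a the media listed different densities at one stretch: a window of 1 kb about 41 kb from the start held 30 sites in serum-2i Tdg cells, against 10 in serum Tdg cells.

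Frizzleds are described apart from the other receptors, with a median span of 4.59 kb against 120 kb. The Frizzleds, the 7-pass receptors for WNT ligands, had 36 sites in serum-2i Tdg cells, 57 in serum Tdg cells, 2 in serum-2i wt cells and none in serum wt cells. Fzd1, Fzd2 and Fzd7 were called lower in serum-2i Tdg cells and had no listed site in wt cells of either medium. Each passed the filter only through serum Tdg cells, so these calls are not independent of it. Fzd2 had 7 sites (62.5) in serum-2i Tdg cells, against 14 (196.5) in serum Tdg cells (log2 -2.37, -2.68 to -2.08). Fzd1 had 3 (42) against 5 (90.5) and a log2 ratio of -1.83, and Fzd7 had 6 (67) against 10 (128) and -1.66. With site numbers in place of coverage, Fzd1 was between. Fzd6, at -0.97, was the other Frizzled to pass the filter. Fzd5 and Fzd10 were listed in serum Tdg cells, at 4 sites each, and not in serum-2i Tdg cells, so they have no ratio. Also under the filter, Fzd3 had 5 sites in serum-2i Tdg cells against 1 in serum Tdg cells. Fzd4 had 2 against 2, Fzd8 1 against 1 and Fzd9 2 against 5.

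Among the other receptors, 2 were called higher in serum-2i. Lgr5, a receptor for R-spondins and a WNT target gene in intestinal stem cells, had 66 sites (1381.5) in serum-2i Tdg cells, 13 (200) in serum Tdg cells, 9 (77.5) in serum-2i wt cells and none in serum wt cells. Mean coverage per listed site was 20.9 in serum-2i Tdg cells and 15.4 in serum Tdg cells, and the log2 ratio of shares was 2.07 (1.91 to 2.22). The co-receptor gene Lrp6 had 53 (1029), 10 (185), 10 (72.5) and none, and a log2 ratio of 1.75 (1.59 to 1.92). Its paralogue Lrp5 had 78 (1655), 41 (611.5), 21 (179.5) and 2 (8.5) and stayed under 2-fold at 0.71. Rnf43 and Znrf3 encode ubiquitin ligases that remove Frizzleds from the cell surface. Rnf43 was the receptor-level gene with the most sites, with 111 (2112), 83 (1858.5), 18 (195.5) and 1 (4.5) and a log2 ratio of -0.54, while Znrf3 stood at 0.18.

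Of the intracellular members, Ctnnb1 and Gsk3b were higher in serum-2i. Ctnnb1 (chr9:120933400-120960507) had 15 sites (320) in serum-2i Tdg cells, 3 (33) in serum Tdg cells, 3 (23) in serum-2i wt cells and 1 (7.5) in serum wt cells. Its log2 ratio was 2.56 (2.19 to 2.94). With 5 kb added on each side of the span it was 0.21, and with site numbers in place of coverage it was 1.44; the gene was called between in either case. With sites of a coverage of at least 10 alone it was 3.66. Gsk3b (chr16:38089001-38246084), which encodes one of the kinases that CHIR99021 inhibits, had 92 (1955), 9 (214), 17 (133) and none. The log2 ratio of shares was 2.47 (2.33 to 2.62), with a mean coverage per listed site of 21.3 in serum-2i Tdg cells and 23.8 in serum Tdg cells. The sites of serum-2i ran along the whole span. The other kinase gene, Gsk3a, had 1 site in each Tdg group and did not pass the filter.

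The Dishevelled genes, which pass the signal from Frizzled to the destruction complex, leaned the other way. Dvl3 had 19 sites (278) in serum-2i Tdg cells, 28 (572) in serum Tdg cells, 1 (9) in serum-2i wt cells and none in serum wt cells, with a log2 ratio of -1.76 (-1.91 to -1.62). Dvl2 had 25 (390.5), 24 (627), 4 (27) and none, with -1.41; counted by sites it was -0.82 and between. Dvl1 stood at -0.81.

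Scaffold and nuclear members were between the limits. Tcf7l1, the repressive TCF factor of mouse embryonic stem cells, had the most sites of all members, with 276 (5137) in serum-2i Tdg cells, 143 (3151) in serum Tdg cells, 38 (302) in serum-2i wt cells and 5 (25) in serum wt cells. Its log2 ratio was -0.02 (-0.06 to 0.03), so its shares in both media were nearly the same. Tcf7l2 had 239 (4408), 90 (1925.5), 42 (326) and 2 (11.5), with a ratio of 0.47. Lef1 (-0.18), Tcf7 (-0.65), Apc (0.23), Axin1 (-0.71) and Axin2 (-0.69), a target gene of the pathway as well as a scaffold, made up the rest. Of the Tcf7l1 sites, 27.9% in serum-2i Tdg cells and 23.1% in serum Tdg cells lay in another span.

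Dkk1 was the inhibitor called lower, with 1 site (10.5) in serum-2i Tdg cells, 6 (90) in serum Tdg cells and none in wt cells of either medium (log2 -3.82, -4.55 to -3.17). Sfrp1 and Sfrp2 encode secreted proteins that bind WNTs. Sfrp1 had 54 (1055.5), 20 (325), 11 (93.5) and none, and at 0.98 it lay just inside the 2-fold limit. Sfrp2 had 10 (206), 6 (224), 1 (8.5) and none, with -0.84. Fzd6, at -0.97, was the member nearest to the limit on the lower side.

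Span length moved with the ratio over all genes. The median log2 ratio of all protein-coding genes was -1.31 for spans under 10 kb, -0.26 from 10 to 30 kb, 0.38 from 30 to 100 kb and 1.05 over 100 kb. Set against the median of their own length class, 18 of 19 ligands lay below it, with a median difference of -1.87. Wnt2 was the exception, at 0.17 above. The same held for 7 of 9 receptors (median difference -0.52) and 10 of 12 intracellular members (-0.92), against 1 of 3 inhibitors. Ctnnb1 lay 2.81 above its class, Gsk3b 1.42, Lgr5 1.02 and Lrp6 0.71. Dvl2 lay 0.10 below its class and the called Frizzleds between 0.35 and 1.07 below it. The part of length in these differences was not tested further.

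**Figure D4:**
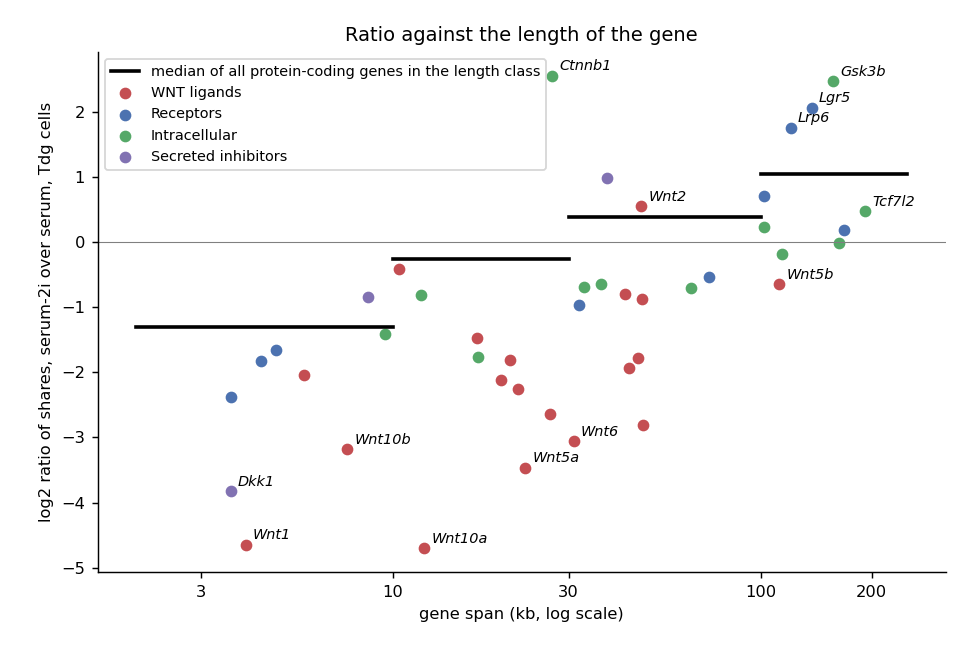
Log2 ratio of shares, serum-2i over serum in Tdg cells, against span length in kb on a log axis, for the 43 members that passed the filter; black bars give the median of all protein-coding genes in each length class. Of the 19 ligands 18 lie below the bar of their class, and Ctnnb1 lies 2.81 above its bar.

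Positions along the genes differed by medium as well. For the 35 members with an annotated start, 27 of 1459 in-span sites (1.85%, exact interval 1.22 to 2.68) lay within 1 kb of a start in serum-2i Tdg cells, against 116 of 1286 (9.02%, 7.51 to 10.7) in serum Tdg cells. All protein-coding genes had 3.36% and 11.2%. Ligands had 2.23% against 11.5%, and intracellular members 1.26% against 4.70%. Counted on both sides of the start, the 15 ligands with a start had 0.333 sites per gene within 250 bases of it in serum-2i Tdg cells and 2.07 in serum Tdg cells. From 250 to 2000 bases they had 4.53 against 14.8 sites per gene, and from 2000 to 5000 bases 7.20 against 11.5. All protein-coding genes had 0.310 against 0.631 sites within 250 bases and 1.59 against 2.14 from 250 to 2000 bases. From 2000 to 5000 bases they had 2.96 against 2.49. Per gene, ligand starts thus had more listed sites nearby than the average gene in both media, though by little within 250 bases in serum-2i. These numbers are not corrected for CG density. In the start windows, ligands had 0.746% of CGs listed in serum-2i Tdg cells, beside 1.87% for all windows. In serum Tdg cells the shares were 3.54% and 2.89%. The 3 distance ranges differ in width, so their numbers are not compared with each other.

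**Figure D5:**
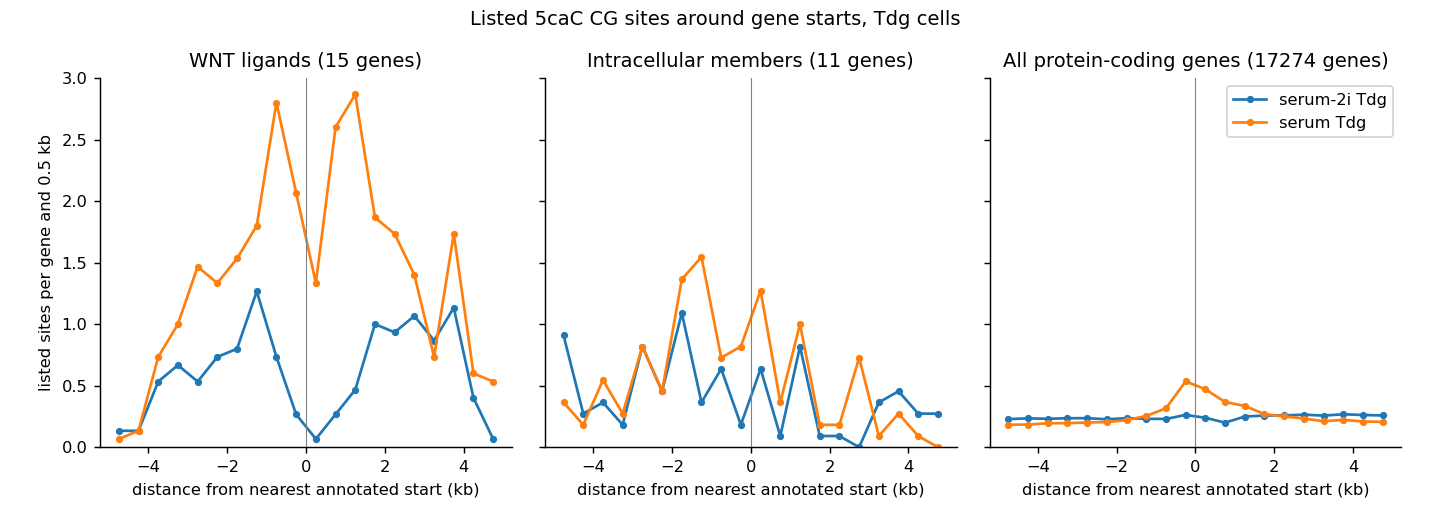
Listed sites per gene in bins of 0.5 kb against the distance from the nearest annotated start in kb (negative is upstream), for 15 ligands, 11 intracellular members and 17274 protein-coding genes in Tdg cells. In ligands the serum line lies above the serum-2i line through the 3 kb on either side of the start, and it dips at the start itself.

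Positions listed in both media can be compared one by one. In the members, 730 positions were listed in both Tdg groups, which is 37.9% of those of serum-2i and 43.3% of those of serum. Over the whole table these shares were 28.7% and 52.8%. Of the 307 such positions in ligands, coverage was higher in serum-2i at 85 and higher in serum at 218, with medians of 16 in serum-2i Tdg cells and 26.5 in serum Tdg cells. In intracellular members, 139 of 286 were higher in serum-2i and 138 higher in serum, and in receptors 63 against 52 of 117. At the shared positions of ligands, raw coverage was thus more often higher in serum. Over all listed sites of the table, median coverage was 13.5 in serum-2i Tdg cells and 14.5 in serum Tdg cells. The splits of all these roles are on this uncorrected scale, so no lean or lack of one beyond the whole table can be read from them. The split over all shared positions of the table is not given here.

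Wild-type cells listed few sites in these genes. Of the 340 positions of serum-2i wt cells, 175 (51.5%) were also listed in serum-2i Tdg cells, and of the 34 of serum wt cells 25 (73.5%) were also listed in serum Tdg cells. Over the whole table these shares were 49.1% and 54.5%. Only 2 positions were listed in all 4 groups. The one in Wnt3a (chr11:59274810) had a coverage of 79 in serum-2i Tdg cells, 93.5 in serum Tdg cells, 9 in serum-2i wt cells and 5.5 in serum wt cells. The one in Wnt6 (chr1:74782579) had 11, 30.5, 4.5 and 3.5 in the same order.

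Between media in wt cells, a ratio needed at least 1 site in each medium, which left 15 members. Of these 1 was higher in serum-2i, Rnf43, and 7 were lower, beside 4.52% higher and 61.8% lower of the 3454 genes with a ratio. The condition of a listed site in serum wt cells shifts the ratios of all genes, whose median was -1.64. The members' median was -1.13. Scaled to the median of all genes, 5 members were higher and 5 lower, beside 26.8% higher and 24.2% lower of all genes. The ratios of Rnf43, Wnt10a and Ctnnb1 each rested on 1 site in serum wt cells, and no member was higher with a coverage minimum of 6 or by number of sites. The 7 lower were Wnt3a, Wnt4, Wnt6, Wnt7b, Wnt9b, Wnt10a and Ctnnb1. Wnt9b had 7 sites in serum-2i wt cells (59.5) and 4 in serum wt cells (21.5), with a log2 ratio of -2.90. Of the other members past the filter, 22 were listed in serum-2i wt cells alone and 1, Wnt1, in serum wt cells alone. Among all 21631 protein-coding genes, 56.1% had a listed site in serum-2i wt cells and 15.5% in serum wt cells. The share of all genes listed in a single medium of wt cells was not computed, so these counts are not read as particular to the members.

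Tdg and wt cells were compared within a medium in the same way. In serum-2i, 37 members had a ratio of Tdg over wt, of which 3 were higher in Tdg cells (Wnt5a 1.30, Fzd6 1.36 and Dvl3 1.15) and 3 lower (Wnt9a -1.25, Axin1 -1.05 and Dvl1 -1.97). Over all genes 12.2% were higher and 21.5% lower. Each of the 3 higher members rested on 1 site in serum-2i wt cells. The remaining 31 were between, and the members' median was -0.04, against -0.19 over all genes. Scaled to the median of all genes, 4 members were higher and 2 lower, beside 15.8% and 17.0% of all genes. In serum, 16 members had a ratio, with Rnf43 (1.25) higher in Tdg cells and Lrp5 (-1.27), Ctnnb1 (-5.30) and Dvl1 (-2.19) lower. Summed coverage itself was larger in Tdg cells for each gene called lower in either medium. In serum it was 611.5 against 8.5 for Lrp5, 33 against 7.5 for Ctnnb1 and 171.5 against 4.5 for Dvl1. The shares over all genes were 3.46% higher and 57.6% lower, with a median of -1.36 against -0.47 for the members, and with that scaling 5 members were higher and 1 lower, beside 24.5% and 25.8% of all genes. Of these, Rnf43, Ctnnb1 and Dvl1 each rested on 1 site in serum wt cells and Lrp5 on 2. The 4 comparisons share groups, since each group enters 2 of them.

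Another 76 genes of the pathway were counted for comparison. They comprise genes of ligand processing, further inhibitors, receptors and intracellular members, planar polarity genes and target genes. In Tdg cells 13 of the 64 with a ratio were higher in serum-2i, 21 lower and 30 between, with a median log2 ratio of -0.27, beside the 29.6% higher and 25.7% lower of all genes. Further secreted inhibitors had 4 higher and 1 lower of 7 (median 1.22), and target genes 1 higher and 4 lower of 7 (median -1.26). Inhibitors under the filter have no part in that median. Sost and Sostdc1 had 3 sites each in serum Tdg cells and none in serum-2i Tdg cells, and Dkk4 had 3 in serum-2i Tdg cells alone of the Tdg groups. The target genes have a median span of 7.21 kb, and all protein-coding genes under 10 kb had a median of -1.31 with 56.4% lower. The highest ratios belonged to the inhibitor genes Dkk2, with 12 sites in serum-2i Tdg cells against 1 in serum Tdg cells (log2 3.93), and Sfrp4, with 10 against 1 (2.78). The lowest belonged to Frat1, whose product binds GSK3, with 3 against 13 (-4.83), and Prickle3, of the planar polarity branch, with 2 against 7 (-3.12). Dkk2, Sfrp4, Frat1 and Prickle3 each passed the coverage filter only through their highest group, so their calls are not independent of the filter. The ratios of Dkk2 and Sfrp4 each rested on 1 site in serum Tdg cells.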

How the data were processed

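The authors' deposited table gives coverage, a signal that is never negative, per CG position and group. Per the labels' protocols, other CGs were blocked, 5caC was decarboxylated and tagged by an engineered methyltransferase, and tagged fragments were enriched, primed at the tag and sequenced on an Ion Proton. Per the submitters' processing notes, the build was mm10, with aligner, site caller and listing rule not given in the sources used here. All values were multiples of 0.5. All 14182 listed positions inside RefSeq start windows had the C of a CG 1 base after the listed number, so positions were counted from 0 and are printed 1 higher.

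Sites were counted per RefSeq span (GRCm38.p6) with Python 3.11.15, numpy 2.4.6, scipy 1.17.1 and pandas 2.3.3; a site in overlapping spans counted for each. The filter kept 19378 genes. Ratios carry exact conditional Clopper-Pearson intervals on the replicate sum, and the scripts were tested on simulated data. Alternatives changed the coverage minimum, measure, scaling, span and filter. Count models per replicate had been planned and were not run, since the table gives 1 value per group. The members and gene lists were chosen with earlier results of these data known. Values in all groups are given for members called higher or lower between media in Tdg cells and for the 2 with most sites per role. Among the other pathway genes, the 2 highest and 2 lowest called ratios with at least 5 sites in 1 group are named, as are the inhibitors under the filter.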

Additional observations from a re-analysis of the deposited data

Results flagged for a closer look

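Ctnnb1 was called in opposite directions between media in the 2 genotypes. Its log2 ratio of serum-2i over serum was 2.56 in Tdg cells (15 sites against 3) and -2.75 in wt cells (3 sites against 1). Summed coverage itself was larger in serum-2i in both genotypes, at 320 against 33 in Tdg cells and 23 against 7.5 in wt cells. Of all genes with a ratio in wt cells, 61.8% were lower, and the median was -1.64. The ratio in wt cells rests on a single site of coverage 7.5 in serum wt cells, and the difference between the genotypes was not tested.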

How the results depend on the processing

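No paired analysis was possible because the table holds 1 value per group and none per replicate; the planned edgeR models, the fit with a replicate block and leaving out each replicate were not run. Ligands lower in serum-2i Tdg cells numbered 14 to 16 under all 8 alternatives and none was higher. The ligands with a ratio numbered 19, or 14 with sites within 2 kb of a start, where 56.3% of all genes were lower. In the other alternatives 15.6% to 27.8% of all genes were lower. Over all alternatives, 78 values of the main counts and shares stayed within 1.5 times or their interval and 36 did not. With a coverage minimum of 6, media in wt cells gave 0 higher and 4 lower of 6 (91.4% of all genes lower). Tdg against wt gave 0 higher of 6 in serum and 5 lower of 35 in serum-2i (24.6% of all genes lower). A minimum of 10 gave, for Tdg against wt in serum-2i, 0 higher and 9 lower of 26, beside 45.5% lower of all genes; it left no member ratio with serum wt cells. By number of sites, media in wt cells gave 0 higher and 3 lower of 15 (7.64% of all genes lower). Tdg against wt gave 0 and 0 of 16 in serum (4.62% lower) and 0 and 1 of 37 in serum-2i (3.36% lower). Intracellular members between media in Tdg cells gave 1 and 1 of 12, beside 9.55% and 15.6% of all genes. Scaling to the median of gene ratios gave 5 higher between media in wt cells, and 5 higher and 1 lower for Tdg against wt in serum. Leaving out sites in other spans gave 0 higher between media in wt cells. With 5 kb on each side, media in wt cells gave 15 lower of 23 (66.4% of all genes). Tdg against wt gave 2 higher and 6 lower of 23 in serum (3.62% and 56.5% of all genes). In serum-2i it gave 1 higher of 43 (13.3%). Between media in Tdg cells 7 of 14 receptors were lower. Of 13 intracellular members 1 was higher and 4 lower, beside 27.4% and 25.5% of all genes. Without the coverage filter, 6 of 13 receptors were lower, beside 26.3% of all genes. Sites within 2 kb of a start, or of either span end where no start is given, left 23 members with a ratio between media in Tdg cells. Of these 1 was higher (1 receptor, 0 intracellular members), beside 12.8% of all genes, and 1 of 3 receptors was lower. In wt cells 0 were higher and 3 lower of 3 (97.3% of all genes lower), and 0 were higher for Tdg against wt in either medium. In this setting the ratio of Wnt8b between media in Tdg cells reversed to 1.26, under the coverage filter. Within 2 kb in place of 1 kb of a start lay 5.55% of sites in serum-2i Tdg cells and 18.0% in serum Tdg cells, beside 6.60% and 17.9% for all protein-coding genes. The causes were not tested. The few sites of serum wt cells limit both comparisons with that group.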
